A study of Mus musculus with 16 samples.

Results

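The 9 genes described here, Anpep, Dpp4, Mep1a, Mep1b, Enpep, Ace, Xpnpep2, Slc15a1 and Slc6a19, encode peptidases of the intestinal brush border and the carriers that take up their products. They were chosen by symbol from the 20072 genes of the deposited expression table, and each symbol matched 1 row. The study sequenced 16 bulk libraries, 4 in each of 4 groups, from untreated Tph1-CFP mice aged 8 to 16 weeks. The groups were CFP-positive cells of the villus fraction (villus EC), CFP-negative epithelial cells of the villus fraction (villus epi), CFP-positive cells of the crypt fraction (crypt EC) and CFP-negative epithelial cells of the crypt fraction (crypt epi). All mice carried the same reporter, cyan fluorescent protein tied to Tph1, the gene of the enzyme that starts serotonin synthesis in the gut. CFP thus marks enterochromaffin (EC) cells, endocrine cells that make most of the serotonin of the body. Each library pooled 5000 sorted cells, and the tissue was the whole small intestine, so values carry no position along its length. The epi groups are defined by lack of CFP alone and hold several epithelial cell types.

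Proteins from a meal are cut in the gut lumen by pancreatic proteases and then at the apical membrane of enterocytes by membrane-bound peptidases. The brush border enzymes divide the work: aminopeptidases trim the amino end, proline-specific enzymes cut bonds that the others leave, and endopeptidases cut within the chain. The resulting short peptides enter through a proton-coupled carrier and free amino acids through sodium-coupled carriers. Several of these ectoenzymes also cut peptide hormones.

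The values are FPKM, which count fragments relative to transcript length and library size, so levels of different genes can be set side by side per length. The depth of the libraries is unknown, because no read counts were used, and column totals ran from 731415 to 1415120. Summed FPKM of 6 EC markers was 49883 to 59886 in villus EC, 249.8 to 381 in villus epi, 54084 to 58721 in crypt EC and 74.7 to 108 in crypt epi. Summed FPKM of 9 enterocyte markers outside the gene set was 1809 to 2772 in villus EC, 100438 to 145700 in villus epi, 512 to 1377 in crypt EC and 2922 to 8915 in crypt epi. In crypt epi, 6 Paneth markers summed to between 180370 and 210028 FPKM and 6 goblet markers to between 38414 and 49227 FPKM. The EC groups held such RNA too. In crypt EC the Paneth markers summed to 5874 to 8941 FPKM and the goblet markers to 1693 to 3205 FPKM. In villus EC the goblet markers summed to 10561.5 to 14629 FPKM, against 12920.5 to 36774 FPKM in villus epi. Paneth markers there summed to 51.8 to 95.1 FPKM in villus EC and 268 to 515 FPKM in villus epi.

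Villus epi replicate 2 stood apart from its group. Its mean correlation with the other libraries of its group was 0.812, against 0.923 to 0.926 for those libraries and 0.971 to 0.985 in the other groups. For 8 of the 9 genes it had 0.0492 to 0.573 times the median of the other villus epi libraries, and for Slc15a1 it had 5.45 times that median. Endothelial and stromal markers summed to 158 FPKM there and mitochondrial transcripts to 5.26% of the total, against 4.49 to 5.97 FPKM and 10.9% to 14.9% in the other villus epi libraries. Of that marker sum, Dcn held 130 FPKM and Pecam1 23.1 FPKM, and each other marker of the list at most 1.93 FPKM. Crypt epi replicate 3 was lower than the median of its group for all 9 genes, with ratios from 0.261 for Ace to 0.836 for Mep1b, and its enterocyte markers summed to 2922 FPKM. The part of these library differences in the results was not tested. Calls for the 9 genes that changed without villus epi replicate 2 are given with and without it.

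Promoters are shown for 2 aminopeptidases that were very low in EC cells, Anpep and Enpep, and for 2 proline-specific peptidases, Dpp4 and Xpnpep2, whose difference between crypt EC and crypt epi was not called with all 16 libraries. Each runs 5′ to 3′ from 250 bases before to 50 after the start annotated by RefSeq on GRCm38.p6, and capitals mark matches to the motifs searched. They lie at chr7:79848161-79848460 on the minus strand (Anpep), chr3:129332700-129332999 on the minus strand (Enpep), chr2:62412182-62412481 on the minus strand (Dpp4) and chrX:48108475-48108774 on the plus strand (Xpnpep2).
Anpep: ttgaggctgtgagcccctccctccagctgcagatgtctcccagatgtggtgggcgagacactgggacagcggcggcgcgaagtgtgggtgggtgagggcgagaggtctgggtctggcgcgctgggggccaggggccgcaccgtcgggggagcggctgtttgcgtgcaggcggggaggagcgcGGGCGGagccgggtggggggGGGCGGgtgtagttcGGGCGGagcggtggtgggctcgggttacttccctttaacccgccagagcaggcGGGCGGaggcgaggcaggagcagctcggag
Enpep: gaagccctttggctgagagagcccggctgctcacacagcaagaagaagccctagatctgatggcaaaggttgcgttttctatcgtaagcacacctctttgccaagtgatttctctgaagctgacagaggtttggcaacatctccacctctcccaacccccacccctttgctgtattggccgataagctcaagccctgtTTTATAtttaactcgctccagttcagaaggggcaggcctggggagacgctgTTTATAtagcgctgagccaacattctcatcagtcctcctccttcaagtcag
Dpp4: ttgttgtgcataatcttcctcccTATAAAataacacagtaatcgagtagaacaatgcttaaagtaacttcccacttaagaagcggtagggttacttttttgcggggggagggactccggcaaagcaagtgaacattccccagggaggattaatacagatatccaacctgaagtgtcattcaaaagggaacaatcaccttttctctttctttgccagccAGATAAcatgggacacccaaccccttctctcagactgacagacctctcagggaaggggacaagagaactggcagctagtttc
Xpnpep2: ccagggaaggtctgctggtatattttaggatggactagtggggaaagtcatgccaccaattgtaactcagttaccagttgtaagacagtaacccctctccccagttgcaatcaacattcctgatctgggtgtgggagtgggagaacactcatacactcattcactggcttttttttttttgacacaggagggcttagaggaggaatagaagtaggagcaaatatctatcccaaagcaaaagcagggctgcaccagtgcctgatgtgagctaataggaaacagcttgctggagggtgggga

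The motifs were searched on both strands: TTTATG for the core of CDX factors, AGATAA for factors of the GATA family, GGGCGG for the GC box and TATAAA for the TATA box. The Anpep promoter held 4 GC boxes and the Dpp4 promoter an AGATAA at -32 and a TATAAA at -227, counted from the annotated start. The Anpep window lies inside the gene as annotated by GENCODE, whose 5′ end is at 79861059, so RefSeq and GENCODE place its start differently. Which start these cells used was not tested. The Enpep promoter held TATAAA on the opposite strand at -52 and -1, printed as TTTATA, and the Xpnpep2 promoter held no match. The printed matches do not overlap. Among 32851 RefSeq promoters of the same length, 35.7% held GGGCGG, 13.6% TATAAA, 11.9% TTTATG and 11.2% AGATAA. The GC content was 72.3% for Anpep, 51.3% for Enpep, 45.3% for Dpp4 and 47.3% for Xpnpep2, against a median of 52.7% over all promoters. These matches describe the letters of the window and nothing about binding. In all, the windows of 8 of the 9 genes were searched, and Mep1b was left out of the search.

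In the villus, brush border peptidases were far lower in EC cells than in the other epithelial cells, with log2 fold changes from -6.40 for Enpep to -3.96 for Dpp4 among Anpep, Enpep, Mep1a, Mep1b, Ace and Dpp4. The remaining peptidase, Xpnpep2, had a log2 fold change of -1.12 in the villus and -0.96 in the crypt, and neither was called. In the crypt the same comparison divided the set. Anpep, Enpep, Mep1a, Mep1b and Ace were lower in crypt EC, while Dpp4, Slc15a1 and Slc6a19 had levels close to those of crypt epi. With limma on log2(FPKM + 1), 8 of 9 genes were called lower and 0 higher in villus EC against villus epi, at an adjusted p below 0.05. Among all 14089 genes tested, 21.6% were called lower and 40.6% higher in that comparison. In crypt EC against crypt epi, 5 of 9 were called lower and 0 higher, against 20% and 23.2% of all genes. With every library rescaled to a total of 1000000, the crypt comparison called 6109 genes higher and 1433 lower, against 3264 and 2824 as deposited, and Dpp4 was then called higher in crypt EC. The median log2 fold change of the 9 genes was -5.66 in the villus and -2.40 in the crypt, beside 0.33 and 0.05 over all genes tested. All 9 passed the filter on low values. From bulk RNA, fewer cells of a type and less RNA per cell cannot be told apart.

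Between sites, the genes were higher in the villus in epi cells and went in different directions in EC cells. In villus epi against crypt epi, 8 of 9 were called higher and 0 lower, against 19.6% and 35.4% of all genes. In villus EC against crypt EC, 3 were called higher (Mep1b, Xpnpep2 and Slc15a1) and 2 lower (Dpp4 and Mep1a), against 10.3% and 16.2% of all genes. The count of higher genes was 1 without crypt EC replicate 1 or villus EC replicate 3. The interaction, which tests whether the difference between EC and epi cells differs between villus and crypt, was called negative for 5 of 9 (Dpp4, Mep1a, Ace, Slc15a1 and Slc6a19) and positive for 0. Over all genes 16% were called negative and 26.9% positive in that test. Without villus epi replicate 2, 9 of 9 were called negative, against 24.1% of all genes.

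**Figure D1:**
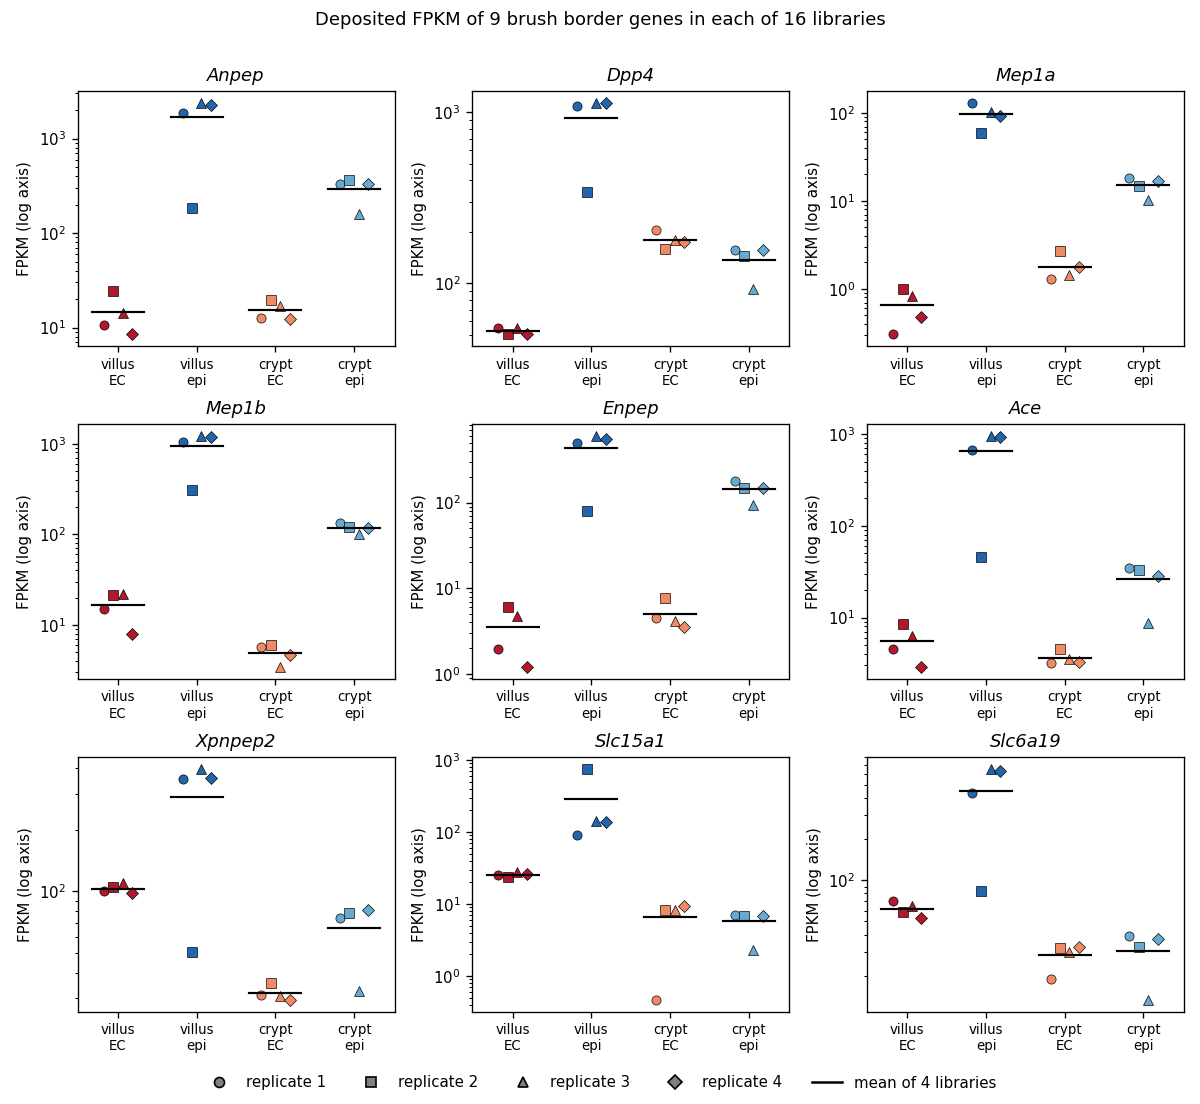
Deposited FPKM of each of the 9 genes in every library, on log axes, with villus EC, villus epi, crypt EC and crypt epi from left to right; each point is a library, its shape the replicate number, and the bar the mean of 4. Villus epi replicate 2 (square) lies far below the rest of its group for Anpep and Ace and above it for Slc15a1.

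Anpep encodes aminopeptidase N, which removes neutral residues from the amino end of peptides (ENSMUSG00000039062, mm10 chr7:79821803-79861059, minus strand). It had 10.6, 24.6, 14.3 and 8.47 FPKM in villus EC, against 1876, 184, 2381 and 2273 FPKM in villus epi. In the crypt it had 12.7, 19.8, 16.9 and 12.5 FPKM in crypt EC, against 328, 362, 161 and 329 FPKM in crypt epi. Every EC library lay far below every epi library of its site, and the EC groups overlapped each other. The log2 fold change was -6.35 ± 0.64 (SE) in the villus (limma adjusted p = 3.71e-07) and -4.13 ± 0.64 in the crypt (limma adjusted p = 7.57e-05). Villus EC averaged 14.5 ± 7.16 FPKM and crypt EC 15.5 ± 3.55 FPKM (SD, n = 4 each), a log2 difference of -0.17 with a 95% half-width of 1.39. Villus epi was higher than crypt epi by 2.05 ± 0.64 log2 units (limma adjusted p = 0.0127), although replicate 2 of villus epi lay within the crypt epi range. Without that library the difference was 2.94 log2 units, and in a fit of these 2 groups alone the 2.05 was not called (limma adjusted p = 0.0616). The interaction was -2.22 and was not called (limma adjusted p = 0.059), and it was called without that library, at -3.11, and without villus EC replicate 2, at -2.50.

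Enpep encodes aminopeptidase A, which removes acidic residues and cuts angiotensin II (ENSMUSG00000028024, chr3:129269175-129332720, minus strand). Its levels were 1.93, 6.05, 4.79 and 1.20 FPKM in villus EC, against 500.4, 78.8, 603 and 557 FPKM in villus epi. In the crypt they were 4.47, 7.69, 4.19 and 3.49 FPKM in crypt EC, against 180.3, 147, 93.7 and 148 FPKM in crypt epi. The highest EC library, at 7.69 FPKM, lay far below the lowest epi library, at 78.8 FPKM. The log2 fold change between EC and epi was -6.40 ± 0.55 in the villus (limma adjusted p = 6.52e-08) and -4.60 ± 0.55 in the crypt (limma adjusted p = 6.17e-06). The epi groups overlapped, and villus epi differed from crypt epi by 1.29 ± 0.55 log2 units, which was not called (limma adjusted p = 0.0598). Without villus epi replicate 2 that difference was 1.99 and was called (limma adjusted p = 0.000102). It was also called with a pseudocount of 5, at 1.27 (limma adjusted p = 0.0382), and with median-ratio scaling, at 1.48 (limma adjusted p = 0.0436). Villus EC and crypt EC overlapped, with a log2 difference of -0.52 and a 95% half-width of 1.20. The interaction of -1.81 was not called (limma adjusted p = 0.0752), and it was called without villus epi replicate 2, at -2.51 (limma adjusted p = 0.000291).

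Dpp4 encodes dipeptidyl peptidase 4, which removes dipeptides ending in proline or alanine and inactivates the gut hormones GLP-1 and GIP (ENSMUSG00000035000, chr2:62330073-62412231, minus strand). It moved in opposite directions along the crypt to villus axis in the 2 cell fractions. Dpp4 had 55.1, 50.3, 55.1 and 50.8 FPKM in villus EC, against 206, 159.5, 179 and 174 FPKM in crypt EC. In epi cells it had 1094, 342, 1136 and 1133 FPKM in the villus, against 158, 145, 92.2 and 156 FPKM in the crypt. Villus EC thus held the lowest levels and villus epi the highest, with no overlap between any 2 groups. Villus EC was lower than crypt EC by a log2 change of -1.74 ± 0.31 (limma adjusted p = 0.000552), and villus epi was higher than crypt epi by 2.62 ± 0.31 (limma adjusted p = 3.11e-06). In the villus, EC against epi gave -3.96 ± 0.31 (limma adjusted p = 2.14e-08). The crypt groups lay side by side, with the lowest crypt EC library just above the highest crypt epi library. Crypt EC averaged 179.6 ± 19.2 FPKM and crypt epi 138 ± 30.9 FPKM (SD, n = 4 each), a log2 difference of 0.41 ± 0.31 that was not called (limma adjusted p = 0.32). In the fit without villus epi replicate 2, which has a smaller shared spread, that same difference was called higher (limma adjusted p = 0.0167). The interaction of -4.36 ± 0.44 (limma adjusted p = 1.55e-06) was the most negative of the 9.

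Xpnpep2 encodes the membrane-bound aminopeptidase P, which cuts before a proline in the second position (ENSMUSG00000037005, chrX:48108725-48136981, plus strand). It had 99.8, 104.7, 109.7 and 97.7 FPKM in villus EC, against 355, 50.6, 398 and 358 FPKM in villus epi. Its crypt levels were 31.2, 35.5, 30.7 and 29.4 FPKM in crypt EC, against 74.2, 78.5, 32.4 and 80.6 FPKM in crypt epi. The EC libraries were tightly grouped, and at each site 1 epi library lay within or below the EC range. Villus EC was higher than crypt EC by 1.67 ± 0.50 log2 units (limma adjusted p = 0.0218), with no overlap. That call was lost without crypt EC replicate 1 (limma adjusted p = 0.0511) or villus EC replicate 3 (limma adjusted p = 0.0517). The differences between EC and epi were -1.12 ± 0.50 in the villus (limma adjusted p = 0.0641) and -0.96 ± 0.50 in the crypt (limma adjusted p = 0.141), and neither was called. Without villus epi replicate 2 they were called, at -1.84 in the villus (limma adjusted p = 2.39e-06) and at the same -0.96 in the crypt (limma adjusted p = 0.000917). The villus difference was also called with median-ratio scaling, at -1.40 (limma adjusted p = 0.0356). The crypt difference was also called in a fit of these 2 groups alone (limma adjusted p = 0.00834). Villus epi was higher than crypt epi by 1.83 ± 0.50 log2 units (limma adjusted p = 0.00591), with overlap from that library. The interaction was -0.16 with a 95% half-width of 1.55 and was not called, and without that library it was -0.87 and called (limma adjusted p = 0.0231).

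Mep1a and Mep1b encode the alpha and beta subunits of meprin, a zinc endopeptidase of the brush border. Mep1a (ENSMUSG00000023914, chr17:43474324-43502812, minus strand) had 0.304, 0.987, 0.827 and 0.484 FPKM in villus EC, against 129.9, 59.4, 104 and 93.3 FPKM in villus epi. In the crypt it had 1.29, 2.67, 1.43 and 1.80 FPKM in crypt EC, against 18.2, 14.9, 10.3 and 16.8 FPKM in crypt epi. All 4 groups were apart from each other. The log2 fold change was -5.85 ± 0.25 in the villus (limma adjusted p = 2.78e-11) and -2.52 ± 0.25 in the crypt (limma adjusted p = 7.79e-07), and with a pseudocount of 1 such low EC levels are understated as a fold. Villus EC was lower than crypt EC by a log2 change of -0.75 ± 0.25 (limma adjusted p = 0.0356), a difference between levels of 0.651 ± 0.312 and 1.79 ± 0.620 FPKM (SD, n = 4 each). That call was lost without crypt EC replicate 2 or 4 or villus EC replicate 1, 3 or 4, at limma adjusted p = 0.0507 to 0.118, and with a pseudocount of 5 (limma adjusted p = 0.356) or median-ratio scaling (limma adjusted p = 0.0818). Villus epi was higher than crypt epi by 2.58 ± 0.25 (limma adjusted p = 3.55e-07), and the interaction was -3.33 ± 0.35 (limma adjusted p = 2.63e-06).

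Mep1b (ENSMUSG00000024313, chr18:21061923-21100199, plus strand) was the more abundant subunit in every library, per length. It had 14.8, 21.5, 21.9 and 7.92 FPKM in villus EC, against 1051, 312, 1225 and 1181 FPKM in villus epi. Crypt levels were 5.73, 5.93, 3.40 and 4.59 FPKM in crypt EC, against 132, 122, 102 and 118 FPKM in crypt epi. No 2 groups overlapped. Between sites the subunits differed in EC cells, where Mep1b was higher in the villus by 1.50 ± 0.39 log2 units (limma adjusted p = 0.00901) and Mep1a lower. This contrast of the subunits was not itself tested. EC against epi gave -5.66 ± 0.39 in the villus (limma adjusted p = 4.51e-09) and -4.35 ± 0.39 in the crypt (limma adjusted p = 2.30e-07). Villus epi was higher than crypt epi by 2.80 ± 0.39 (limma adjusted p = 1.58e-05), and the interaction of -1.31 was not called (limma adjusted p = 0.0664). The interaction was called without villus epi replicate 2, at -1.78 (limma adjusted p = 0.000431), with a pseudocount of 5, at -1.70 (limma adjusted p = 0.0122), and with library weights, at -1.57 (limma adjusted p = 0.000403).

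Ace encodes angiotensin-converting enzyme, which removes dipeptides from the carboxyl end and makes angiotensin II (ENSMUSG00000020681, chr11:105967945-105989964, plus strand). It had 4.56, 8.56, 6.31 and 2.87 FPKM in villus EC, against 669, 45.3, 959.6 and 920.2 FPKM in villus epi. In the crypt it had 3.21, 4.53, 3.50 and 3.30 FPKM in crypt EC, against 34.5, 33.3, 8.67 and 28.4 FPKM in crypt epi. Both EC groups were low and overlapped, and each epi group lay above the EC group of its site, by little in crypt epi replicate 3. The log2 fold change between EC and epi was -6.03 ± 0.76 in the villus (limma adjusted p = 4.52e-06) and -2.40 ± 0.76 in the crypt (limma adjusted p = 0.0179). The crypt call was lost without crypt epi replicate 1 (limma adjusted p = 0.0502) or with a pseudocount of 5, at -1.74 (limma adjusted p = 0.0583). Villus epi was higher than crypt epi by 4.07 ± 0.76 log2 units (limma adjusted p = 0.00028), or by 5.11 without replicate 2, the steepest rise between sites among the peptidases. The interaction was -3.63 ± 1.07 (limma adjusted p = 0.0125). Villus EC and crypt EC differed by 0.43 log2 units with a 95% half-width of 1.65.

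Slc15a1 encodes PEPT1, the proton-coupled carrier of dipeptides and tripeptides (ENSMUSG00000025557, chr14:121459621-121505252, minus strand). It had 24.9, 23.4, 27.7 and 26.4 FPKM in villus EC, against 91.7, 758, 142 and 139 FPKM in villus epi. Its crypt levels were 0.465, 8.28, 8.20 and 9.29 FPKM in crypt EC, against 7.13, 6.87, 2.29 and 6.85 FPKM in crypt epi. It was a villus gene in both fractions, and the crypt groups overlapped. Villus EC was higher than crypt EC by 2.15 ± 0.65 log2 units (limma adjusted p = 0.0222), and villus epi was higher than crypt epi by 4.92 ± 0.65 (limma adjusted p = 9.88e-06), or 4.27 without villus epi replicate 2. Villus EC was below villus epi, at -2.87 ± 0.65 (limma adjusted p = 0.00123), and at -2.21 without villus epi replicate 2 (limma adjusted p = 0.00149). In the crypt the difference was -0.09 with a 95% half-width of 1.41, smaller than the spread between libraries. The interaction was -2.78 ± 0.92 (limma adjusted p = 0.0232). The villus EC against crypt EC call was lost without crypt EC replicate 1, at 1.47 (limma adjusted p = 0.0729), or villus EC replicate 3 (limma adjusted p = 0.0523). The interaction was not called without crypt EC replicate 4 (limma adjusted p = 0.0507) or crypt epi replicate 3 (limma adjusted p = 0.0514), or with a pseudocount of 0.1 (limma adjusted p = 0.0837).

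Slc6a19 encodes a sodium-coupled carrier of neutral amino acids (ENSMUSG00000021565, chr13:73679745-73704865, minus strand). It had 70.03, 58.3, 65.1 and 52.8 FPKM in villus EC, against 436, 84.1, 659 and 630.3 FPKM in villus epi. In the crypt it had 18.8, 32.0, 29.99 and 32.7 FPKM in crypt EC, against 39.3, 32.3, 13.3 and 37.2 FPKM in crypt epi. Its pattern over the groups resembled that of Slc15a1, with overlapping crypt groups and separate villus groups. Villus EC was lower than villus epi by a log2 change of -2.50 ± 0.52 (limma adjusted p = 0.000599), and the crypt difference was -0.03 with a 95% half-width of 1.13. Villus epi was higher than crypt epi by 3.59 ± 0.52 (limma adjusted p = 2.53e-05), and the interaction was -2.48 ± 0.73 (limma adjusted p = 0.0129). Villus EC and crypt EC did not overlap, yet their difference of 1.11 ± 0.52 was not called (limma adjusted p = 0.139). Without villus epi replicate 2 it was called (limma adjusted p = 0.00375), as it was in a fit of these 2 groups alone (limma adjusted p = 0.000404).

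**Figure D2:**
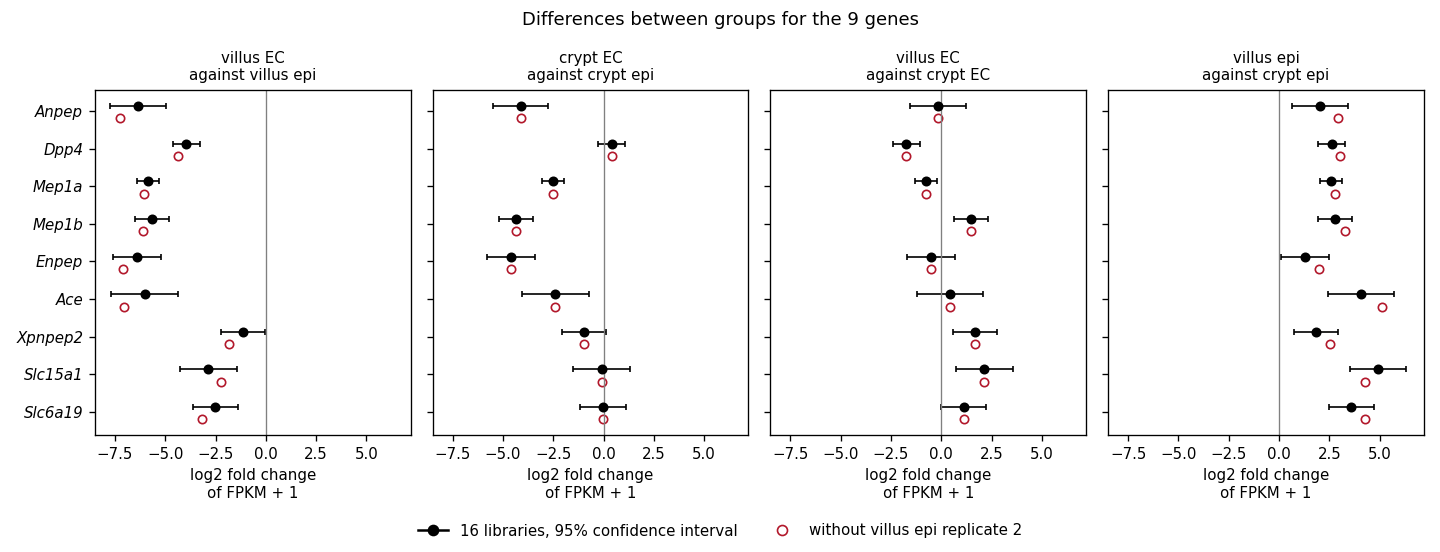
Log2 fold changes of FPKM + 1 for the 9 genes in the comparisons of EC with epi at each site and of villus with crypt in each cell fraction; filled points are from all 16 libraries with 95% confidence intervals, and open points leave out villus epi replicate 2. Dpp4 lies left of 0 for villus EC against crypt EC and right of 0 for villus epi against crypt epi.

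The genes also differed in how much of the epi level EC cells held. In the villus, mean FPKM in EC cells was 0.674% of that in epi cells for Mep1a, 0.803% for Enpep, 0.860% for Ace, 0.863% for Anpep and 1.75% for Mep1b. It was 5.70% for Dpp4, 9.05% for Slc15a1, 13.6% for Slc6a19 and 35.5% for Xpnpep2. Without villus epi replicate 2 the order of the carriers turned, with 20.6% for Slc15a1 and 10.7% for Slc6a19. Enterocyte markers outside the set give a scale: Lct (lactase) stood at 0.329%, Alpi (intestinal alkaline phosphatase) at 0.546%, Fabp1 (a fatty acid carrier) at 0.802% and Apoa1 (an apolipoprotein) at 2.15%. Vil1 (villin, of the microvillus core) stood at 18.4% and Sis (sucrase-isomaltase) at 115%. Without villus epi replicate 2, Sis stood at 92.9%. Anpep, Enpep, Mep1a, Mep1b and Ace thus lay among the lower markers, and Dpp4, Slc15a1, Slc6a19 and Xpnpep2 above them. In the crypt, Enpep, Mep1b and Anpep stood at 3.49%, 4.14% and 5.24%, and Slc6a19, Slc15a1 and Dpp4 at 92.9%, 113% and 130.3%. The percents of Slc6a19, Slc15a1 and Dpp4 hang on single libraries. Their crypt epi means were 30.5, 5.79 and 138 FPKM, and 36.3, 6.95 and 153 FPKM without crypt epi replicate 3. Their crypt EC means were 28.3, 6.56 and 179.6 FPKM, and that of Slc15a1 was 8.59 FPKM without crypt EC replicate 1. The log2 fold change of Slc15a1 there was -0.09. How far RNA of other cells in the EC libraries adds to these levels was not tested.

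**Figure D3:**
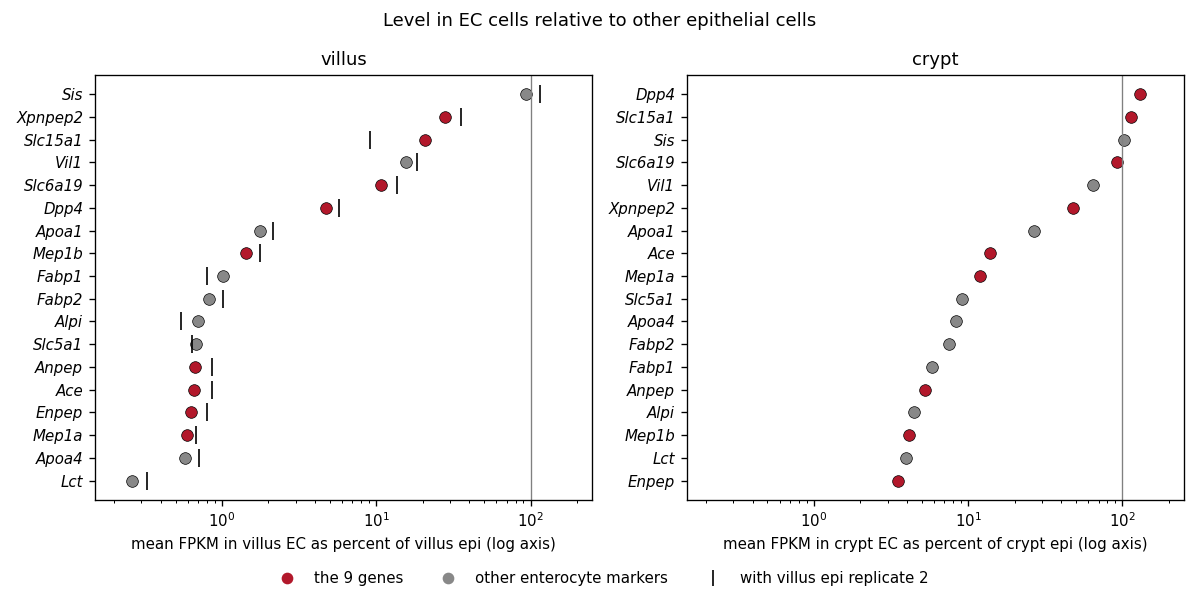
Mean FPKM in EC cells as a percent of the mean in epi cells of the same site, on log axes, for the 9 genes (red) and 9 other enterocyte markers (grey); in the villus panel circles leave out villus epi replicate 2 and ticks include it. Without villus epi replicate 2, Xpnpep2 lies at 27.8%, Slc15a1 at 20.6% and Anpep at 0.666% in the villus, and in the crypt Dpp4 lies at 130.3% and Slc15a1 at 113%.

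The make-up of the set therefore differed by group. Of the summed mean FPKM of the 9 genes, Xpnpep2 took 36.3%, Slc6a19 21.7% and Dpp4 18.6% in villus EC. Anpep took the largest share in villus epi, 29.2%, followed by Mep1b with 16.4% and Dpp4 with 16.1%. Dpp4 took 64.9% in crypt EC, with Xpnpep2 next at 11.4%. In crypt epi Anpep led with 35.2%, and Enpep had 17.0%. The 9 genes together took 0.0281% to 0.0350% of the column total in villus EC, 0.161% to 0.538% in villus epi, 0.0362% to 0.0388% in crypt EC and 0.0493% to 0.0870% in crypt epi.

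**Figure D4:**
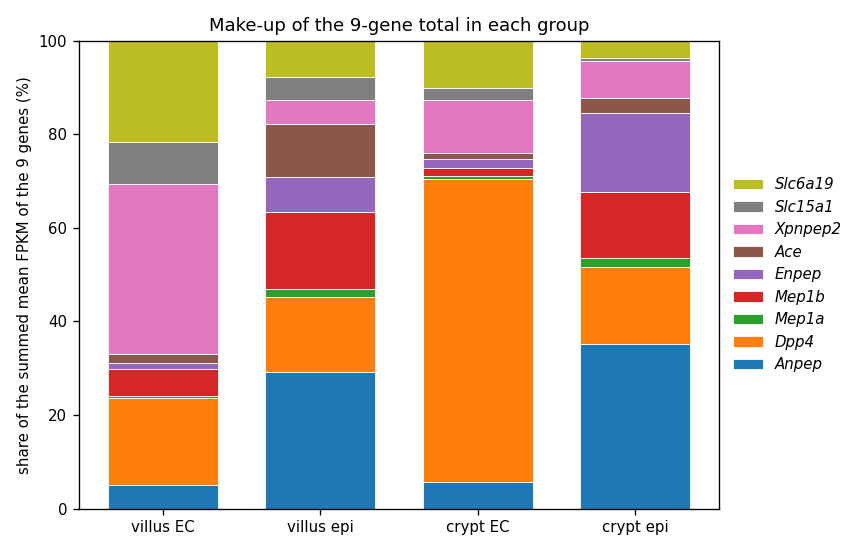
Share of each gene in the summed mean FPKM of the 9 genes, with villus EC, villus epi, crypt EC and crypt epi from left to right and means over 4 libraries. Dpp4 fills 64.9% of the crypt EC bar, while Anpep is the largest part of both epi bars.

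Other brush border and ectopeptidases act beside the 9. Of 10 tested in a list of 14, 7 were called lower and 2 higher in villus EC against villus epi, and 6 lower and 0 higher in crypt EC against crypt epi. Beside the counts of this list and of those that follow stand the shares of all genes, 21.6% lower and 40.6% higher in the villus comparison and 20% lower and 23.2% higher in the crypt comparison. Ggt1, the gamma-glutamyl transferase of glutathione breakdown, had a log2 fold change of -7.43 in the villus and -4.36 in the crypt. Mme (neprilysin) gave -6.46 and -2.96 at those sites. Tmprss15, the enteropeptidase that activates trypsinogen, gave -4.81 in the villus, and in the crypt, where it averaged 0.0503 FPKM in EC and 0.166 FPKM in epi, no difference was called. Between sites, 2 of the 10 were called higher and 1 lower in EC cells, and 6 higher and 2 lower in epi cells. The shares of all genes there were 10.3% higher and 16.2% lower in EC cells, and 19.6% and 35.4% in epi cells. Enpp3, an ectonucleotide pyrophosphatase kept in that list as a neighbour of these enzymes, was higher in villus EC than in crypt EC by 2.99 log2 units.

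The peptidases inside the cell finish the breakdown of absorbed peptides. Of 11 tested, 7 were called lower and 1 higher in villus EC against villus epi, and 5 lower and 2 higher in crypt EC against crypt epi. Of all genes, 40.6% were called higher in the villus comparison and 23.2% in the crypt. Cndp2, a cytosolic dipeptidase, had a log2 fold change of -5.30 in the villus and -2.53 in the crypt. Pepd, prolidase, had 123 ± 8.54 FPKM in villus EC and 1758 ± 742 FPKM in villus epi (SD, n = 4 each), a log2 fold change of -3.68. Dpp7, a dipeptidyl peptidase of intracellular vesicles, went the other way, with 82.5 ± 8.29 FPKM in villus EC and 9.43 ± 6.01 FPKM in villus epi (SD, n = 4 each), or 3.42 log2 units higher (2.64 without villus epi replicate 2). It was also higher in crypt EC than in crypt epi, by 1.90. Lap3, a cytosolic leucine aminopeptidase, had a log2 fold change of -1.43 in villus EC against villus epi and 0.90 in crypt EC against crypt epi, with an interaction of -2.33 (limma adjusted p = 0.000248).

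Among the other peptide carriers, 2 of 4 were tested. Slc15a2, the carrier best known from kidney, averaged 5.81 FPKM in villus EC, 4.49 in villus epi, 3.08 in crypt EC and 2.11 in crypt epi and was called in none of the 5 comparisons. Slc15a4, a lysosomal carrier of histidine and peptides, was higher in villus EC than in villus epi by 1.07 log2 units.

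Of 8 apical amino acid carriers tested, 4 were called lower and 1 higher in villus EC against villus epi, and 5 lower and 2 higher in crypt EC against crypt epi. Slc6a20a, a carrier of proline, gave -5.97 in the villus and -3.14 in the crypt. Slc7a9, the light subunit of the cystine carrier, gave -5.69 and -3.94. Its partner Slc3a1 averaged 86.8 ± 7.24 FPKM in villus EC and 326 ± 169 FPKM in villus epi (SD, n = 4 each), a log2 fold change of -1.65, and was higher in villus EC than in crypt EC by 1.85. Slc1a5, a glutamine carrier, was higher in villus EC, with 115 ± 8.51 FPKM, than in villus epi, with 6.54 ± 3.08 FPKM (SD, n = 4 each), or 4.02 log2 units, and lower in crypt EC than in crypt epi, at -0.98. Of the 7 basolateral carriers, 5 were called lower and 2 higher in the villus comparison, and 4 lower and 0 higher in the crypt.

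Among partners and proton supply, 5 of 7 were called lower and 1 higher in villus EC against villus epi, and 3 lower and 1 higher in crypt EC against crypt epi. Slc9a3, the apical sodium-proton exchanger that works beside PEPT1, had a log2 fold change of -5.13 in the villus and -3.26 in the crypt. Slc9a2, another sodium-proton exchanger, was higher, with 239 ± 3.33 FPKM in villus EC and 73.1 ± 24.8 FPKM in villus epi (SD, n = 4 each), and higher in villus EC than in crypt EC by 2.25 log2 units. Pdzk1, a scaffold of apical carriers, had a log2 fold change of -4.68 in villus EC against villus epi and 2.52 in villus EC against crypt EC. Cltrn, a kidney partner of Slc6a19, averaged 1.96 FPKM in both villus groups, 2.73 in crypt EC and 0.994 in crypt epi and was called in none of the comparisons with all 16 libraries.

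Of 13 transcription factors of the enterocyte, 6 were called lower and 2 higher in villus EC against villus epi, and 3 lower and 0 higher in crypt EC against crypt epi. The crypt count is near the 20% of all genes called lower there. Hnf4g gave a log2 fold change of -3.62 in the villus and -2.04 in the crypt. Its relative Hnf4a averaged 317 ± 7.72 FPKM in villus EC and 102 ± 55.8 FPKM in villus epi (SD, n = 4 each), which was 1.96 log2 units higher, or 1.29 without villus epi replicate 2, and in the crypt the difference of -0.15 was not called. Villus epi replicate 2 had 0.154 times the median of the other villus epi libraries for Hnf4a. Cdx2 gave 0.38 and -0.12 at those sites, and neither was called. Without that library its villus value was -0.42, which was not called either.

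**Figure D5:**
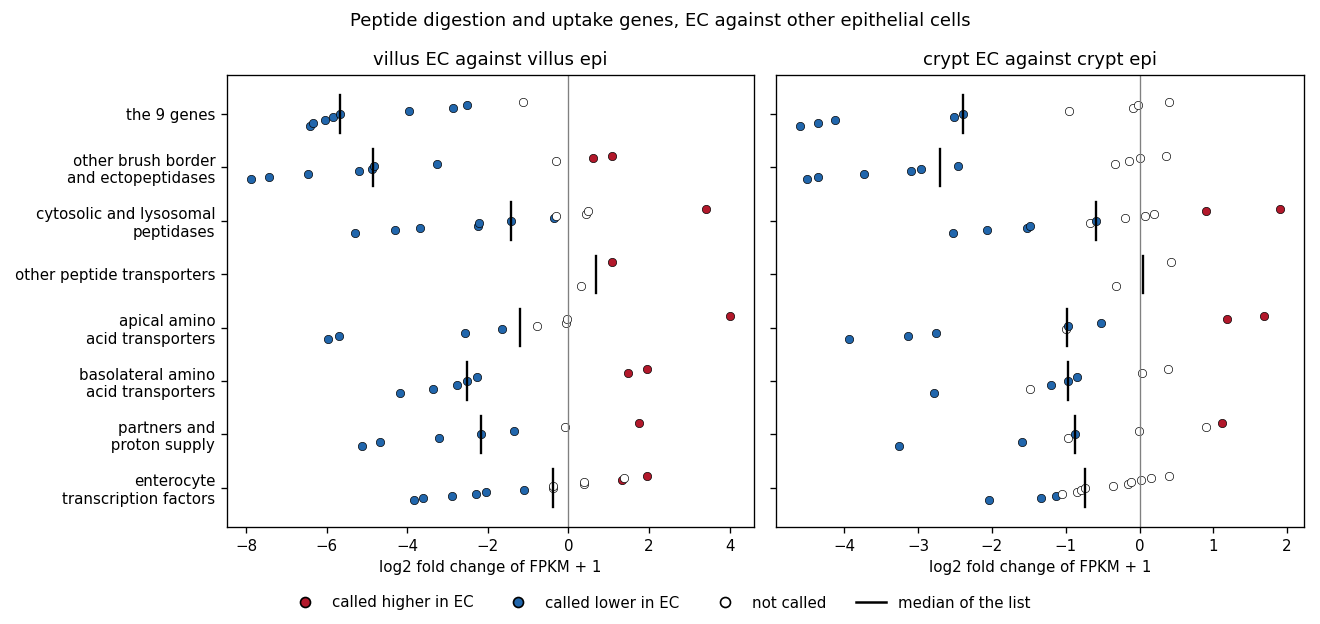
Log2 fold changes of FPKM + 1 in EC against epi cells of the villus (left) and the crypt (right) for the 9 genes and 7 lists of related genes; each point is a tested gene, coloured by its call, and the black line is the median of the list. The median of the 9 genes is -5.66 in the villus and -2.40 in the crypt.

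Across the 16 libraries, the 5 peptidases low in EC cells followed each other. Their Pearson's r of log2(FPKM + 1) ran from 0.896 for Enpep with Ace to 0.990 for Anpep with Enpep. It was 0.944 for Mep1a with Mep1b. Xpnpep2 and Slc6a19 had r = 0.920, and the lowest of the 36 pairs was Enpep with Slc15a1, at 0.375. The libraries fall into 4 groups, so these values mostly describe differences between groups and carry no p. The gene whose pattern was most like the mean of the 9 was Pepd, with r = 0.998 over 16 libraries. Next came Idi1-ps2, H2-Q1, Treh and Emp1, each with r = 0.994, and Fbxo4 and Slc28a1, each with r = 0.992. Idi1-ps2 is a pseudogene and H2-Q1 has close paralogs, so their values may include reads of related genes. For single genes the most alike were Slc25a45 for Anpep (r = 0.996), Acy3 for Dpp4 (r = 0.987), Hes2 for Xpnpep2 (r = 0.973) and Them4 for Slc15a1 (r = 0.989).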

How the data were processed

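Libraries were made with the SMART-Seq HT and Nextera XT kits from total RNA, per the labels' protocols. The submitters' processing notes list bcl2fastq 2.20, kallisto, sleuth and mouse build mm10. No source used here gives the annotation release or the scaling of each library. The authors deposited gene-level FPKM values, and 0 columns were left unmapped. Kallisto shares reads among transcripts, so values of genes with near-identical copies are uncertain.

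From these values log2(FPKM + 1) was computed, and genes were tested where 4 or more of the 16 libraries had an FPKM of 1 or more (14089 of 20072). Limma 3.58.1 in R 4.3.3 fitted 4 group means over all 16 libraries with no replicate block, with moderated two-sided tests (eBayes with trend), Benjamini-Hochberg adjustment within each comparison, and calls at an adjusted p below 0.05. The 95% half-widths use 12 residual degrees of freedom. Villus epi had a wider spread than the other groups (median SD 0.530 log2 units, against 0.163 to 0.177), and the fit shares 1 spread per gene. The steps were run on simulated data with a shared spread and with each group's own spread. A pass was required only with the shared spread, unlike the spread of these groups. Fold changes on this scale understate changes of low genes. Whether the 4 libraries of a group are separate mice is left unclear by the design text, so p-values measure the spread between these samples.

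The 9 genes, the gene lists, the motifs and the tests were chosen with earlier results of these data known. By the rule for named genes, all 9 are reported, and each related list is given by its counts, with at most 4 called genes of largest change per comparison and 12 fixed genes (such as Slc15a2 and Hnf4a) whatever their values. Some genes of the lists are counted but not reported here by name. Likeness names the 10 genes with the highest correlation with the mean of the 9 and 1 for each, of which a part is printed. Positions are from GENCODE vM21, and promoters from RefSeq on GRCm38.p6. Mep1b, on chromosome 18, has no printed sequence, and no protein sequence was used here. Alternatives covered the pseudocount, the filter, scaling, blocks, library weights, 2-group fits and each library left out. Figures were drawn with matplotlib 3.10.9.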

Additional observations from a re-analysis of the deposited data

Results flagged for a closer look

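In 7 of 36 sets of 4 libraries, the highest or lowest library lay apart from the rest of its group by more than the critical value of Dixon's outlier test at the 95% level, which chance passes in about 1 of 20 sets. Villus epi replicate 2 was apart for Dpp4 (342 FPKM), Xpnpep2 (50.6 FPKM) and Slc15a1 (758 FPKM). It was low for Dpp4 and Xpnpep2 and high for Slc15a1. Crypt epi replicate 3 was low for Anpep (161 FPKM), Xpnpep2 (32.4 FPKM) and Slc15a1 (2.29 FPKM). Crypt EC replicate 1 was low for Slc15a1 (0.465 FPKM), where its enterocyte markers summed to 512 FPKM, the lowest of its group.

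The difference between EC and epi cells differed between villus and crypt, by the interaction test, for 5 of the 9 genes. All 5 were negative, and 16% of all genes were called negative. The interaction was -4.36 for Dpp4, -3.33 for Mep1a, -3.63 for Ace, -2.78 for Slc15a1 and -2.48 for Slc6a19. A negative value means that EC relative to epi was lower in the villus than in the crypt. The limma adjusted p-values are given with the genes. Without villus epi replicate 2, 9 of 9 were called negative, against 24.1% of all genes. With a block by library number, Ace (limma adjusted p = 0.0665) and Slc6a19 (limma adjusted p = 0.0505) were not called.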

How the results depend on the processing

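Under the 28 alternatives (27 for the interaction), no called fold change of the 9 genes changed sign. Values not called as deposited did, for Slc15a1 (-0.41 to 0.59) and Slc6a19 (-0.39 to 0.50) in crypt EC against crypt epi, Anpep (-0.46 to 0.03) and Ace (-0.05 to 0.66) in villus EC against crypt EC, and the Xpnpep2 interaction (-0.87 to 0.15). In all, 26 of 45 kept their side of the threshold under every alternative that was run. Leaving out each library, the number called was 8 to 9 lower and 0 to 0 higher for villus EC against villus epi, 4 to 6 lower and 0 to 1 higher for crypt EC against crypt epi, 1 to 2 lower and 1 to 4 higher for villus EC against crypt EC, 8 to 9 higher and 0 to 0 lower for villus epi against crypt epi, and 4 to 9 negative and 0 to 0 positive for the interaction. Over all genes, those fits called 2823 to 3692 lower and 5345 to 6745 higher in villus EC against villus epi. In crypt EC against crypt epi they called 2419 to 4291 lower and 2842 to 4703 higher. In villus EC against crypt EC the counts were 1751 to 3848 lower and 1149 to 2694 higher. In villus epi against crypt epi 2447 to 3554 were higher and 4581 to 5828 lower. Negative interactions numbered 1999 to 3352 and positive ones 3461 to 5211. Among the 9, genes called lower in villus EC against crypt EC fell to 1 with a pseudocount of 5, median-ratio scaling or either replicate block. Dpp4 made 1 higher in crypt EC with a total of 1000000, with library weights and without both villus epi replicate 2 and crypt epi replicate 3 (chosen after seeing the data). The last 2 settings gave 9 negative interactions.

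The labels do not say whether libraries with the same number share a mouse. Deviations from group means of libraries with the same replicate number in the titles correlated from -0.268 to 0.170 (median -0.035, 24 pairs). By library number they correlated from -0.268 to 0.139 (median -0.097, 10 pairs). With 4 libraries in each group, these values cannot decide whether the numbers pair the libraries. With the replicate block, genes called lower in villus EC against crypt EC numbered 1, and with the block by library number 0 were higher, 1 lower and 3 interactions negative, and Anpep in villus epi against crypt epi was not called (1.64, adjusted p = 0.143). Over all genes, that last block called 609 higher and 1232 lower in villus EC against crypt EC, against 1454 and 2282.

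Median-ratio scaling moved the median of all genes by -0.22 in villus EC against villus epi, -0.14 in crypt EC against crypt epi and 0.13 in villus epi against crypt epi. A total of 1000000 moved it by 0.47, 0.46 and -0.19, and by -0.18 in villus EC against crypt EC. With that total, Npepps changed sign in the villus comparison (0.27, adjusted p = 0.142) and Atp1b1 in the crypt (0.54, adjusted p = 0.00421). It called 7947 genes higher and 1901 lower in villus EC against villus epi, against 5724 and 3046 as deposited, 1139 and 3503 in villus EC against crypt EC, against 1454 and 2282, and 1977 and 5974 in villus epi against crypt epi, against 2761 and 4994.

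Tpp1 in villus epi against crypt epi turned to 0.33 with library weights, 0.40 without villus epi replicate 2 and 0.37 without both libraries. The Gata4 interaction turned to -0.79, -0.76 and -0.76 under those settings, and that of Rnpep to -0.28 and -0.33 without 1 and without both libraries. Over all single libraries left out, the ranges were -0.47 to 0.40 for Tpp1, -0.76 to 0.82 for Gata4 and -0.28 to 0.50 for Rnpep. The adjusted p-values of the turned values were 0.00255 to 0.0438, and the cause was not tested. In crypt EC against crypt epi, genes called lower numbered 4334 in fits of 2 groups, 4291 without villus epi replicate 2 and 4751 with weights, against 2824, and weights called 5177 higher. In villus EC against crypt EC, 2748, 2694 and 3086 were higher and 3759, 3848 and 4169 lower under those settings, against 1454 and 2282. Weights gave 3549 negative interactions over all genes, against 2258. Library depth is unknown, so the precision of low FPKM values such as those of Mep1a in EC cells could not be given.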
